A study of Mus musculus with 24 samples.

Results

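Erythropoietin acts on red cell precursors through one receptor, one kinase and a pair of transcription factors, and 10 genes of that chain and its feedback loop were followed here in bone marrow and liver of bled mice. They were chosen by gene name, with earlier results of these data known. Of the 56605 probes on the array, 21 carried any of the 10 names, among 37074 different entries in the array's gene name column. The signalling parts were the receptor Epor, the kinase Jak2 and the transcription factors Stat5a and Stat5b, with 8 probes. The feedback and target genes were Cish, Socs1, Socs2, Socs3, Pim1 and Bcl2l1, with 13 probes.

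Male mice of genotype Erfe-/-, which lack erythroferrone, were bled by retro-orbital puncture, and total RNA of liver and bone marrow was hybridised to single-colour Agilent arrays. Each tissue had 4 arrays at 0 h, labelled as untreated control, 4 at 24 h and 4 at 48 h after bleeding, which makes 24 arrays. All groups share the Erfe deletion, so no wild-type response was measured. Strain and age are not given in the sources used here, and marrow was taken whole, without sorting.

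Erythropoietin is made mainly by the kidney when oxygen delivery falls. When it binds its receptor on erythroid progenitors, JAK2 bound to the receptor phosphorylates it and then STAT5A and STAT5B, which enter the nucleus and switch on target genes. Among these, Cish and the Socs genes encode SH2-domain proteins that damp the same signal, Pim1 encodes a survival kinase, and Bcl2l1 encodes BCL-XL, which protects late erythroblasts from apoptosis. In liver, STAT5 is better known as the mediator of growth hormone, which male rodents secrete in pulses and which also induces Cish and Socs2 there.

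All levels are log2 values from which the array's own 75th percentile was taken off, so 0 means a probe as bright as that percentile and 1 unit is a 2-fold difference. A probe was tested in a tissue if at 1 or more times all 4 arrays read it well above background, and changes were called at a Benjamini-Hochberg adjusted p under 0.05 over all probes tested in limma. By this rule 20 member probes were tested in marrow and 17 in liver, and every one of the 10 genes had at least 1 tested probe in both tissues. The fourth Socs2 probe, A_55_P2072586, was above background on 6 of 12 marrow and 5 of 12 liver arrays and was tested in neither. The 75th percentile lay between 354.1 and 466.7 intensity units on liver arrays and between 693.8 and 941.8 on marrow arrays, and no spot was saturated.

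The tissues matched their markers: 19 of 19 erythroid markers were above background on all marrow arrays, and 20 of 20 hepatocyte markers on all liver arrays. One marrow array, 24 h replicate 2, also held liver transcripts, at a median of 11.4% of the liver level over 20 hepatocyte genes, against 0.00565% to 0.0272% on the other 11 marrow arrays. For most member probes described singly, the 24 h marrow change is given without it as well. The 4 arrays of a group are 4 mice per the labels, and in whole tissue fewer cells of a type and less RNA per cell cannot be told apart.

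In bone marrow, Cish and Pim1 rose at both times, and no other member passed the test. Both are target genes, and 0 of 8 signalling probes were called at 24 h or 48 h. Over all 32223 probes tested, 0.816% were called at 24 h and 1.04% at 48 h, and 2 of 20 member probes were called at each time. Both were higher, a direction that 0.434% of all probes took at 24 h and 0.909% at 48 h. Since the members were chosen with earlier results known, these shares are descriptions and not a separate test. The median change of the 12 target probes was 0.08 at 24 h and 0.42 at 48 h, and that of the 8 signalling probes was -0.10 and 0.05, beside -0.03 and 0.01 over all probes. Of the 12 target probes 5 are of Bcl2l1, which weights these medians to that gene. With only the brightest probe of each gene, the medians were 0.59 and 0.37 for the 6 target genes. For the 4 signalling genes they were -0.11 and 0.07. An unadjusted p under 0.05 was reached by 5 target and 0 signalling probes at 24 h, against 11.7% of all probes, and by 7 target and 1 signalling probe at 48 h, against 15.2%. The 7 target probes at 48 h were those of Cish and Pim1 and the 5 of Bcl2l1.

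**Figure D1:**
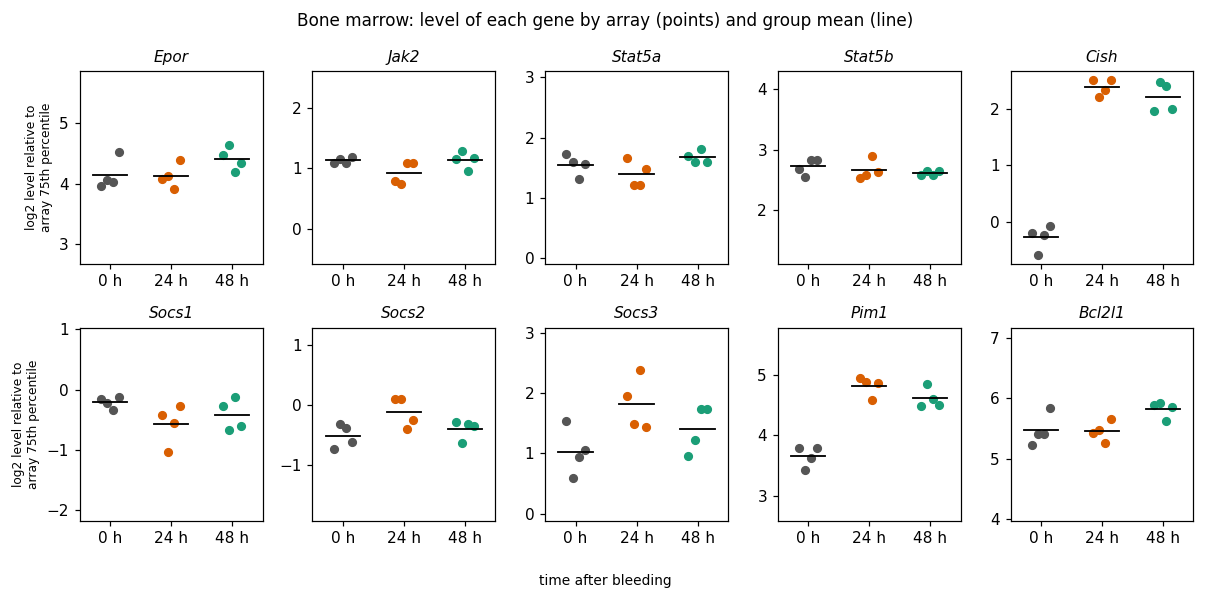
Level of each gene in bone marrow, 1 probe per gene (the brightest), on 12 arrays: the x axis is the time after bleeding in hours, the y axis the log2 level relative to the array's 75th percentile, points are arrays and lines are means of 4. All panels span at least 3.2 log2 units, and Cish and Pim1 are the panels in which the 0 h points lie below every later point.

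Cish, which encodes the cytokine-inducible SH2 protein and is a classic early target of STAT5, had the largest change of the 10 genes. Its probe A_51_P470715, which lies at chr9:107204196-107204255 on the plus strand of mm9, read -0.21, -0.59, -0.23 and -0.07 on the 0 h marrow arrays. It read 2.51, 2.21, 2.34 and 2.52 at 24 h and 1.97, 2.48, 2.42 and 2.003 at 48 h. All 8 arrays of bled mice were above all 4 at 0 h, and the 24 h and 48 h arrays overlapped. The 24 h change was 2.67 (SE 0.15, 95% confidence interval 2.35 to 2.997), a 6.37-fold rise with a limma adjusted p of 1.39e-05 and rank 2 of all probes by p. At 48 h it was 2.49 (SE 0.15, limma adjusted p = 2e-05, rank 3), 5.63-fold. Between 24 h and 48 h it differed by -0.18 (95% confidence interval -0.50 to 0.15, limma adjusted p = 0.778). Each of the 3 slides held only 1 or 2 marrow arrays of a time. Within them the 24 h change was 2.91, 2.44 and 2.51 and the 48 h change 2.37, 2.68 and 2.08. Without 24 h replicate 2, the array with liver transcripts, the 24 h change was 2.73 (limma adjusted p = 0.000121).

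The DNA around the Cish start shows the letters that STAT5 is known to bind. The motif searched was TTCNNNGAA, which reads the same on both strands, in the 300 bases from 250 before to 50 after each RefSeq start in GRCm38.p6. It occurred in 8.3% of 32851 windows, and in 0.457% it occurred 2 or more times. Cish had 2 matches, TTCCTGGAA beginning at the first transcribed base and TTCTTGGAA beginning at base 12. The stretch below runs 5′ to 3′ from 100 bases before the start to base 20, at chr9:107296559-107296678 on the plus strand, with the matches in capitals.
Cish: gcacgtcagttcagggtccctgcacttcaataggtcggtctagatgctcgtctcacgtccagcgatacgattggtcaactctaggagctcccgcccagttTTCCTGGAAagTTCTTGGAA
Of the 9 member genes with a window in the RefSeq table, 2 held the motif in 2 of 14 windows, Cish and Socs3. With 4 instead of 3 free letters between TTC and GAA, the count was 1 gene, Bcl2l1, against 6.95% of all windows. A match is a description of letters near the start and not a measured binding site, and the enhancers that lie farther away were not searched.

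Pim1, a serine/threonine kinase that supports survival of blood cells, followed the same course at a smaller size. The probe A_55_P2736570, at chr17:29632331-29632390 on the plus strand of mm9, read 3.79, 3.43, 3.62 and 3.80 in marrow at 0 h. At 24 h it read 4.94, 4.89, 4.58 and 4.87, and at 48 h 4.49, 4.86, 4.60 and 4.50. Every later array was above every 0 h array. The change was 1.16 at 24 h (SE 0.12, 2.24-fold, limma adjusted p = 0.000956) and 0.96 at 48 h (SE 0.12, 1.94-fold, limma adjusted p = 0.00418). Within slides, with 1 or 2 arrays of a time, it was 1.34, 1.27 and 0.93 at 24 h and 0.88, 1.11 and 0.71 at 48 h. Without 24 h replicate 2 the 24 h change was 1.14 (limma adjusted p = 0.00499).

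The 3 SOCS genes, which encode suppressors of cytokine signalling related to CISH, passed no test in marrow. Socs3 read 1.53, 0.59, 0.93 and 1.06 at 0 h, 1.95, 1.49, 2.37 and 1.44 at 24 h, and 0.95, 1.21, 1.74 and 1.73 at 48 h. The groups overlapped, since the 0 h array at 1.53 was above a pair of 24 h arrays. Its change was 0.79 at 24 h (SE 0.26, unadjusted p = 0.0112, limma adjusted p = 0.247) and 0.38 at 48 h (SE 0.26, limma adjusted p = 0.52). Socs3 was the other gene with a TTCNNNGAA match, beginning 154 bases before its start; the stretch from 190 to 71 bases before the start, at chr11:117969437-117969556 on the minus strand of GRCm38.p6, is shown because Socs3, unlike Cish, passed no test in marrow.
Socs3: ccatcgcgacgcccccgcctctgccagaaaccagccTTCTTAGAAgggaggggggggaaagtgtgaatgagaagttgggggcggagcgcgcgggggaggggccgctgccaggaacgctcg

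Socs2, better known for limiting growth hormone signalling, had 3 tested probes in marrow. Its brightest, A_51_P107362, read -0.73, -0.31, -0.37 and -0.61 at 0 h, 0.10, 0.10, -0.39 and -0.25 at 24 h, and -0.28, -0.63, -0.32 and -0.35 at 48 h. A pair of 24 h arrays stood above all others, and 24 h replicate 3 lay within the 0 h range. The change at 24 h was 0.40 (SE 0.14, limma adjusted p = 0.29) by this probe, 0.37 (SE 0.14, limma adjusted p = 0.315) by A_55_P1992838 and 0.11 (SE 0.29) by the dim probe A_52_P84037, and at 48 h all 3 lay between 0.01 and 0.11. Socs1, the strongest inhibitor of JAK kinases in the family, read between -0.34 and -0.13 at 0 h, between -1.03 and -0.26 at 24 h and between -0.66 and -0.12 at 48 h. Its change was -0.36 at 24 h (SE 0.17, limma adjusted p = 0.436) and -0.20 at 48 h (SE 0.17, limma adjusted p = 0.595). The intervals leave room for moderate changes of all 3 genes: the upper bound at 24 h was 1.36 for Socs3 and 0.71 for Socs2, and the lower bound for Socs1 was -0.72. The Socs1 reading of -1.03 came from 24 h replicate 2, the array with liver transcripts. Without that array the Socs1 change at 24 h was -0.21 (limma adjusted p = 0.661), that of Socs3 was 0.89, and those of Socs2 were 0.33, 0.33 and 0.12 in the order above.

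Bcl2l1 passed no test by any of its 5 probes. At 24 h the 5 changes lay between -0.08 and 0.04, and without 24 h replicate 2 between -0.03 and 0.05. At 48 h they lay between 0.35 and 0.60, each with an unadjusted p under 0.05 (0.00322 to 0.024) and limma adjusted p-values of 0.109 to 0.244. The brightest probe, A_55_P1974877 at chr2:152606404-152606463 on the minus strand of mm9, read 5.22, 5.42, 5.41 and 5.84 at 0 h, 5.43, 5.47, 5.27 and 5.66 at 24 h, and 5.89, 5.93, 5.62 and 5.86 at 48 h. Of the 0 h arrays only replicate 4 reached into the 48 h range. Its 48 h change was 0.35 (SE 0.14, limma adjusted p = 0.244), and A_66_P122989 gave the largest, 0.60 (SE 0.16, limma adjusted p = 0.109). The 48 h change of A_55_P1974877 was 0.57 and 0.36 within slides 1 and 2 and 0.02 within slide 3, the slide that holds 0 h replicate 4. In slide 3 this set 1 array against 1.

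The 5 probes report on different stretches of the gene and share a target, so they are not replicates. A_52_P510877 lies 48722 bases from A_55_P1974877. The file places A_66_P122989 on 47 bases, of which 43 lie within A_55_P1974877, yet these 60-base probes share no run longer than 5 letters, as their first 30 bases show.
A_55_P1974877: atagtttgtgtgaaggtgaaagtgcagttc
A_66_P122989: gagaggggtgtgtagggaggagagcctgtc
The listed position of A_66_P122989 is therefore uncertain, and where in the transcript each probe lies was not analysed here. Non-overlapping 0 h and 48 h arrays were seen for 3 member probes, namely Cish, Pim1 and Bcl2l1 A_51_P299454, beside 12.2% of all probes. At 24 h against 0 h this held for 2, beside 7.74%.

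Epor, the receptor itself, was bright in marrow and did not pass the test. Probe A_51_P435339 read 3.96, 4.06, 4.03 and 4.53 at 0 h, 4.09, 4.13, 3.91 and 4.40 at 24 h, and 4.48, 4.64, 4.198 and 4.34 at 48 h. The 3 times overlapped, and 0 h replicate 4 was again the highest of its group. The change was -0.01 at 24 h (SE 0.15, limma adjusted p = 0.983) and 0.27 at 48 h (SE 0.15, limma adjusted p = 0.415). The second probe, A_55_P2740942, whose 60 bases span 145 bases of the genome, gave -0.03 at 24 h and 0.58 at 48 h (SE 0.19, unadjusted p = 0.0101, limma adjusted p = 0.173). Without 24 h replicate 2 the 24 h changes of these probes were -0.01 and 0.08.

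No probe of Jak2, the receptor's kinase, or of the STAT5 genes was called in marrow. The main Jak2 probe, A_66_P106863, read 1.09, 1.16, 1.09 and 1.18 at 0 h, 0.78, 0.75, 1.09 and 1.08 at 24 h, and 1.16, 1.29, 0.95 and 1.17 at 48 h. Its change was -0.20 at 24 h (95% confidence interval -0.43 to 0.02) and 0.01 at 48 h (-0.21 to 0.24). Stat5a A_66_P115018 lay between 1.32 and 1.72 at 0 h, between 1.21 and 1.66 at 24 h and between 1.59 and 1.81 at 48 h. Its 24 h and 48 h changes were -0.16 (SE 0.12) and 0.12 (SE 0.12). Stat5b A_55_P2031043 lay between 2.55 and 2.83, between 2.52 and 2.89, and between 2.58 and 2.64, with changes of -0.06 (SE 0.10) and -0.11 (SE 0.10). For these 3 probes the 95% confidence intervals of both changes lay between -0.43 and 0.39, so a change as large as that of Pim1 was outside them. Without 24 h replicate 2 their 24 h changes were -0.14 for Jak2, -0.10 for Stat5a and -0.04 for Stat5b. The dimmer Jak2 probe A_52_P309376 changed by -0.26 at 24 h (95% confidence interval -0.64 to 0.12) and -0.05 at 48 h. By each Jak2 probe, 3 of the 24 h arrays read below every 0 h array. The other STAT5 probes changed by -0.13 and 0.09 (Stat5a A_55_P1990495) and by 0.07 and 0.01 (Stat5b A_52_P663027). The 24 h interval of that Stat5b probe reached 0.49. STAT5 activity depends on phosphorylation, which these arrays do not measure.

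**Figure D2:**
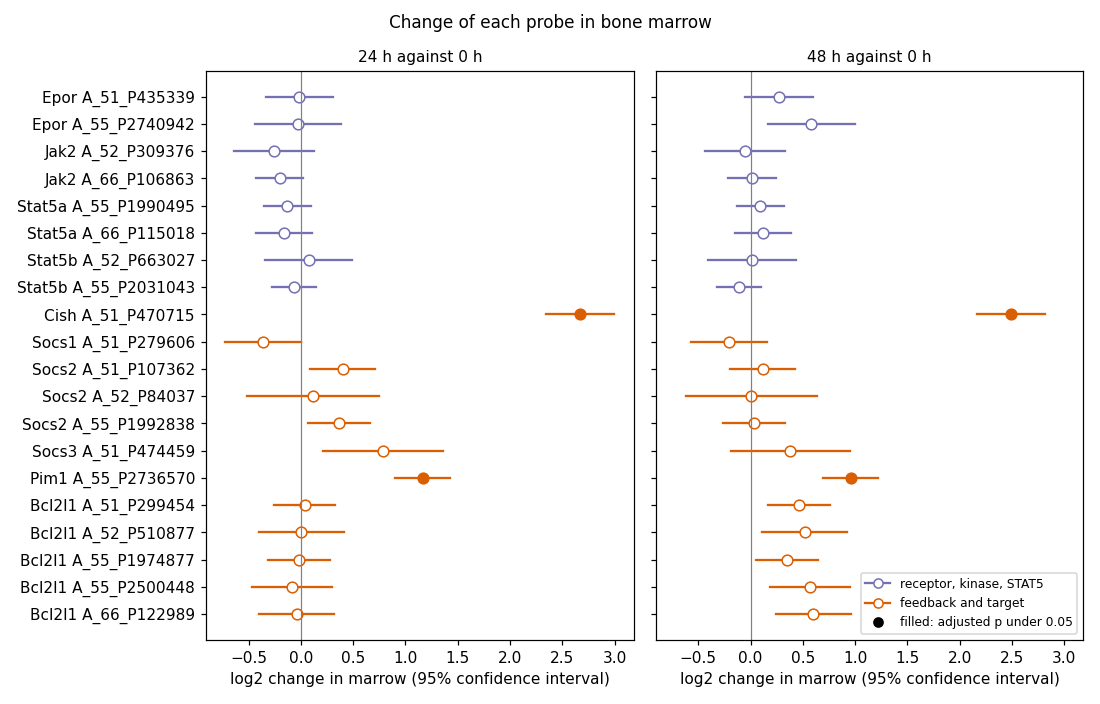
Change of the 20 member probes tested in bone marrow, at 24 h (left) and 48 h (right) against 0 h: the x axis is the log2 change, points are limma estimates from 4 arrays against 4, bars are 95% confidence intervals, filled points have an adjusted p under 0.05. Cish at 2.67 and 2.49 and Pim1 at 1.16 and 0.96 are the filled points, and the 5 Bcl2l1 probes sit near 0 at 24 h and between 0.35 and 0.60 at 48 h.

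Between 24 h and 48 h in marrow 0 of 20 member probes were called, beside 0.0031% of all probes, a single one. Of the 20, 8 had an unadjusted p under 0.05, beside 7.94% of all probes. They were all 5 Bcl2l1 probes, with changes of 0.37 to 0.65, Epor A_55_P2740942 at 0.61, Stat5a A_66_P115018 at 0.28 and Socs2 A_55_P1992838 at -0.34. The 5 Bcl2l1 changes had limma adjusted p-values of 0.484 to 0.569. Non-overlapping arrays were seen for 3 Bcl2l1 probes, beside 3.82% of all probes.

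Levels of Bcl2l1 and Epor tracked those of erythroid markers from sample to sample, a relation looked for after their values had been seen. The mean of the 19 erythroid markers, relative to the 0 h mean, was -0.15, -0.10, -0.04 and 0.28 at 0 h, 0.09, 0.03, -0.11 and 0.31 at 24 h, and 0.51, 0.63, 0.22 and 0.38 at 48 h. Array by array over the 12 samples, Bcl2l1 A_55_P1974877 correlated with this mean at Pearson r = 0.953 (permutation p = 1e-05, the smallest 100000 permutations can give) and Spearman rho = 0.979 (permutation p = 1e-05). Epor A_51_P435339 gave r = 0.943 (permutation p = 2e-05) and rho = 0.93 (permutation p = 3e-05). Both had a Benjamini-Hochberg adjusted permutation p of 1e-04 over the 10 member genes. Without the 2 arrays farthest from the median of the marker mean, r was 0.944 and 0.901, and after each time's own mean was removed it was 0.932 and 0.979.

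Cish and Pim1 fell into separate clusters, bled against 0 h, so no pooled r is given for them; within times r was 0.364 and 0.53. At 0 h replicate 4, with the highest 0 h marker mean of 0.28, Bcl2l1 read 5.84 and Epor 4.53, inside their 48 h ranges. On that array Cish read -0.07 and Pim1 3.80, the highest 0 h reading of each and below all later arrays. At 24 h replicate 3, with the lowest 24 h marker mean of -0.11, Bcl2l1 read 5.27, Epor 3.91, Cish 2.34 and Pim1 4.58. For Jak2, Stat5a, Stat5b, Socs1, Socs2 and Socs3, r lay between -0.253 and 0.409 with permutation p-values of 0.19 to 0.807. The part of erythroid content in the changes of Bcl2l1, Epor, Cish and Pim1 was not tested.

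**Figure D3:**
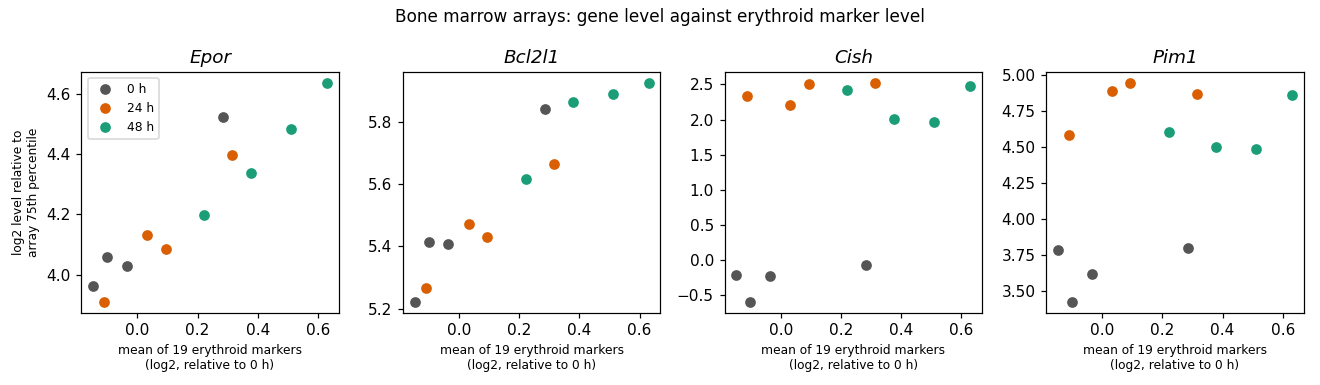
Level of Epor, Bcl2l1, Cish and Pim1 (y axis, log2 relative to the array's 75th percentile) against the mean of 19 erythroid markers (x axis, log2 relative to the 0 h mean) on 12 marrow arrays, coloured by time. Epor and Bcl2l1 are higher where the markers are higher (r = 0.943 and 0.953), while Cish and Pim1 form a low 0 h group and a high later group. Marker means ran from -0.15 to 0.28 at 0 h, from -0.11 to 0.31 at 24 h and from 0.22 to 0.63 at 48 h.

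As whole lists, 19 of 19 erythroid markers had a positive change at 48 h and 12 of 19 at 24 h, with medians of 0.43 and 0.05. Those called were Tfrc at both times and Rhag and Cldn13 at 48 h, beside 0.816% of all probes called at 24 h and 1.04% at 48 h. Their summed level, in multiples of the 75th percentile, ranged from 2024 to 2651 at 0 h, from 2034 to 2359 at 24 h and from 2357 to 2881 at 48 h. All 12 B cell markers had negative changes at both times (medians -0.63 and -0.41, 0 called), and their summed level ranged from 80.2 to 135.9 at 0 h, from 57.9 to 90.3 at 24 h and from 58.1 to 113.8 at 48 h. Neutrophil markers had medians of -0.09 and -0.22, monocyte and macrophage markers -0.32 and -0.21, and megakaryocyte markers -0.09 and 0.08, with 0 called. At 24 h an unadjusted p under 0.05 was reached by 5 of 19 erythroid, 8 of 12 B cell and 5 of 9 monocyte and macrophage markers. At 48 h it was reached by 13, 3 and 3 of them, and by 0 neutrophil or megakaryocyte markers at either time. The shares of all probes were 11.7% and 15.2%. The part of these cell types in the member changes was not tested.

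The genes whose marrow pattern was most like that of Cish were taken by Pearson correlation over the 12 arrays among 19591 gene names. They were Plek2 (r = 0.99), a pleckstrin-family gene of late erythroblasts, the mitochondrial folate enzymes Shmt2 (0.973) and Mthfd2 (0.972), Cited4 (0.972) and the metallothionein Mt2 (0.967). Pim1, at 0.975, ranked 3 among all names, and Socs3, the next member, ranked 1704 at 0.623. Plek2 read -2.23, -2.39, -2.17 and -1.94 at 0 h, 0.10, -0.17, -0.40 and -0.03 at 24 h, and -0.07, -0.01, -0.03 and -0.34 at 48 h. Its change was 2.06 at 24 h (SE 0.13, limma adjusted p = 3.46e-05) and 2.07 at 48 h (limma adjusted p = 2.72e-05). Once the time means were removed, r with Cish was 0.694 for Plek2, 0.742 for Shmt2, 0.584 for Mthfd2, 0.473 for Cited4, 0.19 for Mt2 and 0.736 for Pim1. Apart from Pim1, these genes were picked by their correlation on the same 12 arrays. Their changes and r values are therefore descriptions and not a separate test.

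Of 28 other signal transducers tested in marrow, 1 was higher at 24 h and 2 at 48 h, and 0 were lower, beside 0.816% and 1.04% of all probes called. Their median changes were -0.05 and -0.07, and 3 and 4 of them had an unadjusted p under 0.05, beside 11.7% and 15.2% of all probes. Irs2, an adaptor of insulin and cytokine receptors, changed by 0.38 at both times (SE 0.07, limma adjusted p = 0.0324 and 0.0285), and Gab1, a docking protein, by 0.56 at 48 h (SE 0.12, limma adjusted p = 0.048). Of 21 other negative regulators and 14 other receptors that use JAK2, 0 were called at either time. Among the regulators 4 had an unadjusted p under 0.05 at 24 h and 2 at 48 h, and among the receptors 0 did.

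Of 20 other reported targets of STAT5 or erythropoietin tested, 1 was higher at 24 h and 2 at 48 h, and 0 were lower, beside the same 0.816% and 1.04% of all probes called. An unadjusted p under 0.05 was reached by 7 of the 20 at 24 h and 8 at 48 h, beside 11.7% and 15.2% of all probes. The genes went both ways, with positive changes for 9 and 11 of the 20 and median changes of -0.01 and 0.02. Tfrc, the transferrin receptor, which also stands in the erythroid list, changed by 0.79 at 24 h (SE 0.13, limma adjusted p = 0.0172) and 1.02 at 48 h (limma adjusted p = 0.00422). Gadd45a, a stress-response gene, changed by 0.60 at 48 h (SE 0.10, limma adjusted p = 0.0148). Myc, a growth regulator, differed by 0.40 at 48 h (SE 0.11, limma adjusted p = 0.116).

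In liver no member passed the test at any time. Of 28795 probes tested, 0% were called in each of the 3 comparisons, and 0 of 17 member probes. An unadjusted p under 0.05 was reached by 10.7%, 6.04% and 7.75% of all probes at 24 h against 0 h, 48 h against 0 h and 48 h against 24 h. Among the members it was reached by 1, 0 and 1 probes. They were Socs2 A_52_P84037 at 24 h (0.79, limma adjusted p = 0.409) and Stat5a A_55_P1990495 at 48 h against 24 h (0.29, limma adjusted p = 0.587). That Socs2 probe was dim and stood above background on 3 of 4 livers at 0 h. The brighter Socs2 probes A_51_P107362 and A_55_P1992838 changed by 0.22 and 0.40 at 24 h (limma adjusted p = 0.892 and 0.767). No member probe had non-overlapping groups in liver, beside 5.57%, 4.15% and 3.91% of all probes.

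Cish was as variable between livers of one time as it was between times. It read 2.95, -0.85, 2.69 and 1.73 at 0 h, 2.11, -0.10, 0.85 and 0.39 at 24 h, and 0.79, 0.32, 0.79 and 2.70 at 48 h. The 0 h group alone spanned both the lowest and the highest liver. The SDs of the successive times came to 1.73, 0.95 and 1.06, against 0.22, 0.15 and 0.27 in marrow. Its changes were -0.82 (SE 0.81, limma adjusted p = 0.741) and -0.48 (SE 0.81, limma adjusted p = 0.978), and the 24 h interval ran from -2.60 to 0.97.

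Socs2 varied along with Cish in liver. A_51_P107362 read 2.78, 0.70, 1.96 and 1.47 at 0 h, 2.76, 2.09, 1.49 and 1.43 at 24 h, and 1.07, 0.92, 1.43 and 2.40 at 48 h. The same liver at 0 h was lowest for both genes, and the same liver at 48 h was highest of its time for both. Over the 12 livers Cish and Socs2 gave Pearson r = 0.76 (permutation p = 0.00483, adjusted 0.035 over 29 relations), rho = 0.762 (permutation p = 0.0054), 0.619 without the 2 farthest livers and 0.865 within times. The same 29 relations, with the other 9 members and 20 further targets, also gave Myc at r = 0.841 (rho = 0.811, adjusted permutation p = 0.0058), Il2ra at 0.81 (rho = 0.839, adjusted permutation p = 0.0202) and Ptpn22 at 0.755 (rho = 0.734, adjusted permutation p = 0.035). Il2ra and Ptpn22 were dim in liver, from -3.28 to -2.30 and from -3.97 to -2.63. Ptpn22 was above background on 11 of 12 livers. Its lowest reading, not above background, came from 0 h replicate 2, the liver with the lowest Cish. Without the 2 farthest livers r was 0.747 for Il2ra and 0.786 for Ptpn22.

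Bcl6, a repressor at STAT5 targets, ran the other way at r = -0.597 and rho = -0.79 (adjusted permutation p for r = 0.215), with its lowest reading of 1.05 in 24 h replicate 1, where Cish read 2.11. The other 24 relations, with Pim1 at r = -0.476, had adjusted permutation p-values of 0.243 or more. These relations were looked for after the liver values of Cish had been seen.

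**Figure D4:**
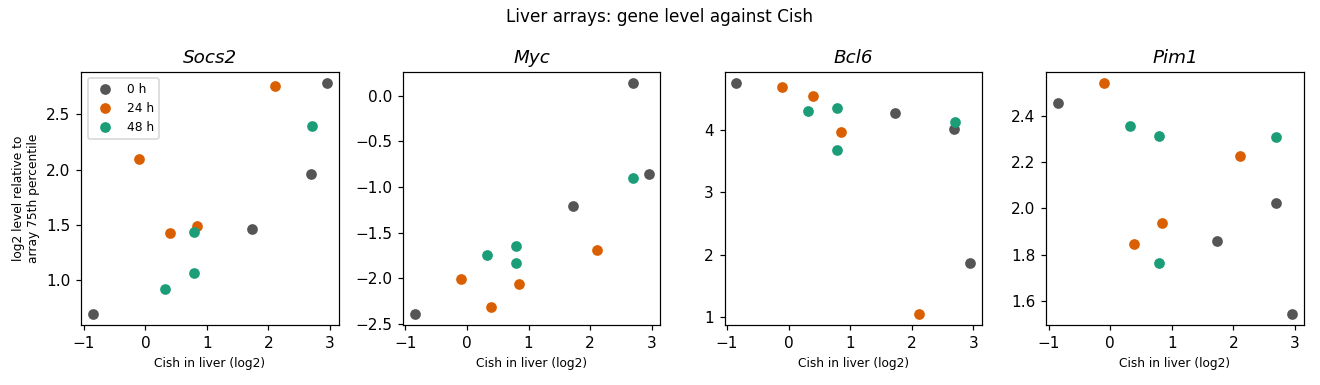
Level of Socs2, Myc, Bcl6 and Pim1 (y axis, log2 relative to the array's 75th percentile) against Cish (x axis, the same scale) on 12 liver arrays, coloured by time. Socs2 and Myc are higher where Cish is higher (r = 0.76 and 0.841), Bcl6 has its 2 lowest readings at high Cish, and no time forms a group of its own.

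Among the tested probes of the other members in liver, that of Socs3 had the widest range, from 0.40 to 2.54, with changes of 0.49 and 0.71 (SE 0.36, limma adjusted p = 0.641 and 0.843). Bcl2l1 A_55_P1974877 lay between 3.54 and 3.89 on all 12 livers, with changes of 0.00 and 0.01 (SE 0.09). Epor A_51_P435339 lay between -1.10 and -0.53, and A_55_P2740942 was well above background on 0 of 12 livers. Pim1 lay between 1.54 and 2.54 with changes of 0.17 and 0.21 (SE 0.21). Jak2 A_66_P106863 lay between -1.31 and -0.85, Stat5a A_66_P115018 between 2.53 and 2.96, Stat5b A_55_P2031043 between 3.18 and 3.88, and Socs1 between -2.54 and -1.67. Of the 28 other transducers, 21 regulators, 14 receptors and 20 further targets tested in liver, 0 were called at either time.

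**Figure D5:**
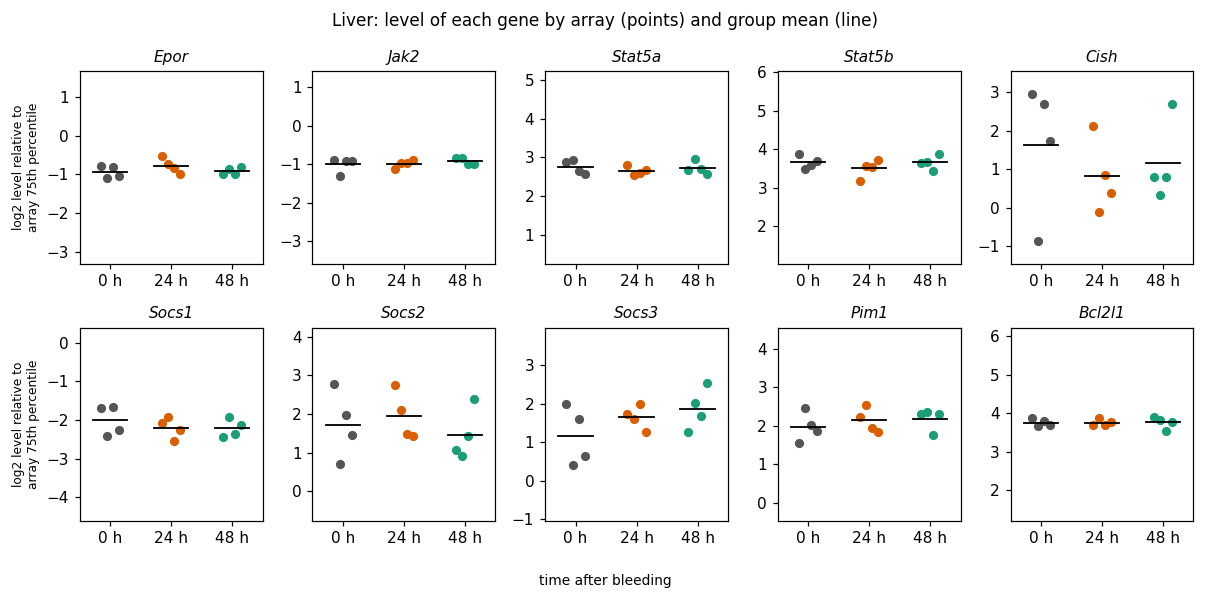
Level of each gene in liver, the same probe per gene as for marrow, on 12 arrays: the x axis is the time after bleeding in hours, the y axis the log2 level relative to the array's 75th percentile, points are arrays and lines are means of 4. Cish spreads from -0.85 to 2.95, Socs2 from 0.70 to 2.78 and Socs3 from 0.40 to 2.54, and Bcl2l1, Jak2 and Stat5a stay within about the same range at all times.

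Set beside each other, the order of the groups differed by gene. For Cish the highest means were marrow at 24 h (2.40 ± 0.15, SD, n = 4) and 48 h (2.22 ± 0.27), then liver at 0 h (1.63 ± 1.73), 48 h (1.15 ± 1.06) and 24 h (0.81 ± 0.95), and last marrow at 0 h (-0.28 ± 0.22). Neighbours in this order overlapped throughout, down to liver at 24 h, where 1 array at -0.10 lay within the marrow 0 h range. For Pim1 the order was marrow at 24 h (4.82 ± 0.16), 48 h (4.61 ± 0.17) and 0 h (3.66 ± 0.17), then liver at 48 h (2.19 ± 0.28), 24 h (2.14 ± 0.31) and 0 h (1.97 ± 0.38), with overlap between the later marrow times and among the livers. Epor means in marrow were 4.14 ± 0.26, 4.13 ± 0.20 and 4.41 ± 0.19, in order of time, and those in liver -0.94 ± 0.16, -0.78 ± 0.19 and -0.91 ± 0.10. Bcl2l1 means in marrow were 5.47 ± 0.26, 5.46 ± 0.16 and 5.82 ± 0.14, and those in liver 3.75 ± 0.10, 3.75 ± 0.09 and 3.76 ± 0.15. By the probes used here, Epor A_51_P435339 and Bcl2l1 A_55_P1974877, the times overlapped within a tissue and the tissues did not. Some other Bcl2l1 probes had marrow times that did not overlap, as given above. Each tissue is scaled to its own percentile, so gaps between tissues are descriptions and were not tested.

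The difference between the tissues' changes was tested over all 24 arrays on 26593 probes tested in both. It called 0.414% of probes at 24 h and 0.421% at 48 h, and 0 of 17 member probes at each. For Cish the marrow change exceeded the liver change by 3.49 at 24 h (SE 0.87, limma adjusted p = 0.0772) and by 2.97 at 48 h (SE 0.87, limma adjusted p = 0.14). For Pim1 the excess was 0.998 (SE 0.25, limma adjusted p = 0.08) and 0.74 (SE 0.25, limma adjusted p = 0.214). Of the 17 member probes, 11 were of target genes. An unadjusted p under 0.05 was reached by 2 of the 17 at 24 h and 5 at 48 h, beside 11.9% of all probes at each time. The 24 h count was near that share and held the probes of Cish and Pim1. At 48 h the probes were those of Cish and Pim1 and Bcl2l1 A_51_P299454, A_55_P1974877 and A_66_P122989, the last named all of a single gene.

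Leaving out 1 liver, and some other settings, brought Cish or Pim1 past the threshold. Without liver 0 h replicate 2, whose Cish was -0.85, the Cish difference was 4.32 at 24 h (limma adjusted p = 0.0073) and 3.80 at 48 h (limma adjusted p = 0.0127). Without liver 0 h replicate 1 the Pim1 difference at 24 h was 1.14 (limma adjusted p = 0.0417). With all arrays kept, the 24 h difference was called for Cish with normexp background correction (3.34, limma adjusted p = 0.0498), and for both genes with array weights (limma adjusted p = 0.033 for Cish and 0.0422 for Pim1). It was also called for both when same-numbered liver and marrow of a time were taken as 1 mouse, which the labels do not state (limma adjusted p = 0.0426 and 0.0473).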

How the data were processed

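Each array is 1 mouse's liver or marrow RNA, labelled with Cy3. Intensity values (gProcessedSignal) were extracted by Agilent Feature Extraction 10.10.1.1, per the file headers and the submitters' processing notes, and probe positions are mm9 per the file headers. The authors' deposited log2 table, with scale and centring unstated and the same direction as the scanner signal, served as an alternative; its column medians were about 7.74 in liver and 8.31 in marrow. From the intensities, log2 minus each array's 75th percentile over non-control spots was computed, spots of a probe were averaged, and each tissue's 3 times were fitted together over 12 arrays in limma 3.58.1 (R 4.3.3). The fit was tested on simulated data.

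Members and lists were chosen with earlier results of these data known. Named genes are the members, the 5 named genes most correlated with Cish in marrow, and up to 4 genes per pathway list by lowest p. Same-numbered arrays of different times correlated at -0.25 to 0.158 over 24 pairs, so numbers were not taken to pair mice. The tissues of the same number and time correlated at 0.031 to 0.207 over 12 pairs. With 4 arrays against 4, the smallest exact permutation p is 0.0286. Slide was tested as a block. No column was left unmapped. Array number limits the precision. Promoter letters are RefSeq's, GRCm38.p6.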

Additional observations from a re-analysis of the deposited data

Results flagged for a closer look

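Of 111 groups of 4 arrays examined over the member probes, 5 held 1 array far from the other 3, and chance alone gives about 1 in 20 such groups. Jak2 A_66_P106863 read -1.31 in liver 0 h replicate 2, against -0.91 to -0.90 on the other 3. That is also the liver with the lowest Cish. Pim1 read 1.76 in liver 48 h replicate 3, against 2.31 to 2.35. The dim Stat5b probe A_52_P663027, made from a cDNA clone, read -3.33 in marrow 0 h replicate 3, against -3.01 to -2.96. The dim Socs2 probe A_52_P84037, which lies 24260 bases from A_51_P107362, read -3.31 in marrow 0 h replicate 2, against -4.49 to -4.40, and -4.77 in marrow 48 h replicate 2, against -4.01 to -3.87. None of these groups enters a called change.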

How the results depend on the processing

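Cish and Pim1 stayed higher in marrow and called at 24 h and 48 h under all 24 alternatives, with changes of 2.54 to 2.74 and 2.37 to 2.58 for Cish and 1.09 to 1.24 and 0.87 to 1.003 for Pim1. Over 3784 member values under alternatives, 3775 kept their call or lack of one, 0 lost a call, 9 gained one and 0 reversed. A reversal was counted only where the main or the alternative value was called. Among values called in neither, 185 changed sign. The 263 marrow probes called at 24 h became 84 with no filter on dim probes, 162 with the replicate block, 508 with array weights and 150 with only the arrays of the 2 times. The 335 at 48 h became 190 with median scaling, 92 with no filter, 140 with the replicate block, 129 with the slide block, 527 with a variance trend and 1105 with array weights. At 48 h against 24 h the 1 probe became 0 with the arrays of the 2 times. Leaving out 1 array gave 87 (without 0 h replicate 2) to 281 at 24 h, 116 (without 48 h replicate 2) to 481 at 48 h, 0 to 1 in liver at 24 h and at 48 h against 24 h, and 0 to 14 in liver at 48 h (without liver 48 h replicate 1). For the difference between tissues, the 110 probes at 24 h became 20 with median scaling, 18 with no filter, 256 with the replicate block and 188 with array weights. The 112 at 48 h became 13 with median scaling, 175 with normexp, 24 with no filter, 174 with probes above background on all 24 arrays, 269 with the replicate block, 190 with a variance trend and 395 with array weights. Leaving out 1 array gave 20 to 224 and 35 to 162. Member probes called there at 24 h rose from 0 to 1 with normexp (Cish) and to 2 with the replicate block and with array weights (Cish and Pim1), and lay between 0 and 1 at both times with 1 array left out. Bcl2l1 A_66_P122989 was called at 48 h in marrow with array weights (0.64, limma adjusted p = 0.0408). The replicate block, with time and number as a mouse for the tissue difference, gave Cish an adjusted p of 0.0426 and Pim1 0.0473 in limma. It changed no other member call. The labels do not say that the tissues came from the same mice. Of 12 same-time pairs, 10 correlated best with their own number. The tissues of each such pair were also on the same slide. The part of a shared mouse and that of a shared slide in these correlations was not tested. With no filter the share higher among marrow calls at 24 h was 73.8%, against 53.2%. The causes were not tested. Dim probes and 4 arrays a group limit what could be detected.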
